A study of Mus musculus with 4 samples.

Results

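TNBS colitis was compared with its vehicle control in colonic epithelial cells (CECs), using the log2 difference TNBS + Veh minus Vehicle of every gene. TNBS haptenates colonic proteins and, delivered with ethanol, provokes colitis. Both groups were female BALB/cJ mice of 8 to 10 weeks. By the labels, TNBS + Veh mice received 1 mg of TNBS in 50 µL of 60% ethanol into the rectum. They also received 100 µL of DMSO/corn oil into the peritoneum daily up to day 5, and Vehicle mice received the vehicles alone. The study's methods differ on the TNBS dose and give 100 µL and 50% ethanol. I3C (indole-3-carbinol) groups made up the other 2 of the 4 arrays in the series. The labels name the cells as enriched epithelial cells, whereas their extraction note names whole colon, and the study's methods describe selection for EPCAM.

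Cells of each group were pooled onto 1 Clariom D array, so every value below is a single reading and no difference could be tested. The number of arrays limits the precision. Of 65956 probe sets, 30638 pair with 1 gene symbol and stand for 30176 genes, each taken at the probe set of highest mean signal. Of these genes, 19050 are protein-coding. Background was judged from 1720 probe sets of olfactory and vomeronasal receptors, genes of sensory neurons, whose 95th percentile did not exceed 5.43 in any array. Values at or below 5.43 were raised to it, and a gene dim in 1 array has a difference of "at least" the size given. A gene above this level in either array is called measured, which held for 15220 genes and for 10107 coding genes. Values are log2 signals, and a difference of 1 is 2-fold. As a yardstick, the SD of I3C minus Vehicle, the arrays without TNBS, was 0.189 to 0.377 over coding genes at different brightness, and it holds any effect of I3C.

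In TNBS + Veh, 309 of 10107 measured coding genes (3.06%) exceeded Vehicle by 2-fold or more, and 61 (0.604%) were at least 2-fold lower. By any size, 62.3% were higher, with a median difference of 0.09. Brighter genes lay further up, with a median of 0.18 over the 3704 genes with a mean signal of 8 to 14. With each array centred on the median of its coding genes above background, the median of all measured coding genes moved from 0.09 to -0.05. The share of higher genes among those 2-fold apart moved from 83.5% to 73.4%, or 240 higher and 87 lower. Differences of lists below should be read against these medians. In transport, metabolism and barrier lists, which hold 825 named genes, 685 were measured, 71 of them 2-fold higher or more and 18 of them 2-fold lower or more.

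**Figure D1:**
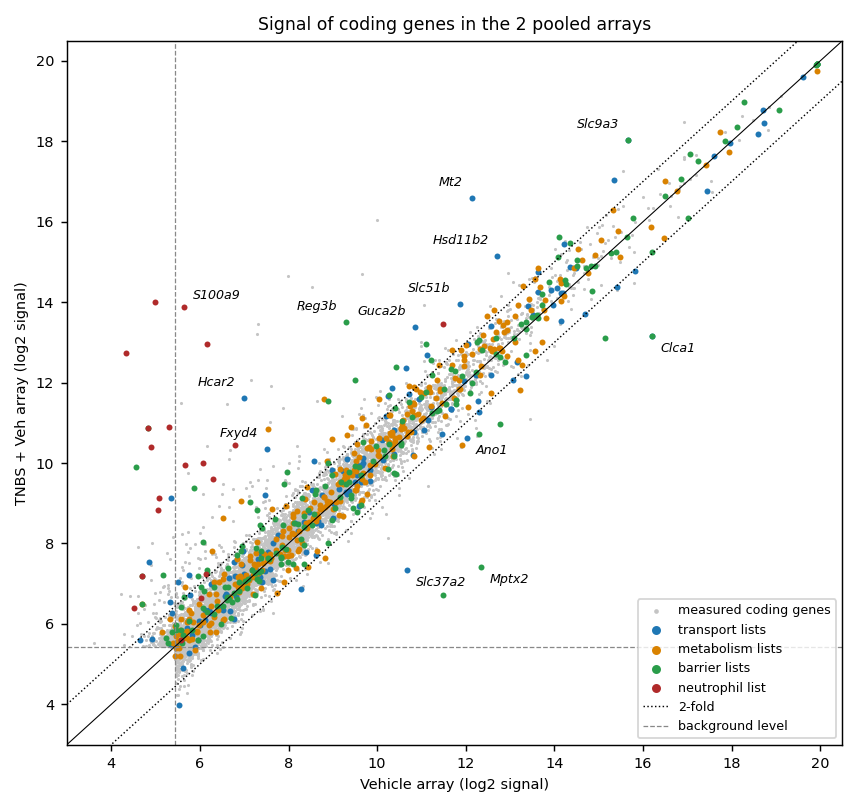
Each point is a measured coding gene, with its log2 signal in the Vehicle array on the x axis and in the TNBS + Veh array on the y axis, coloured where it belongs to a transport, metabolism, barrier or neutrophil list. Dotted lines mark 2-fold and dashed lines the background level of 5.43, and Mt2, Hcar2 and Slc9a3 lie far above the diagonal while Mptx2, Slc37a2 and Clca1 lie far below it.

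Epithelial markers were near the same level in both arrays, while neutrophil genes were far higher in TNBS + Veh. All 14 pan-epithelial genes were measured, with a median difference of 0.18. Epcam, which encodes the surface protein used for selection, read 17.06 in both arrays. By the study's flow cytometry, not all enriched cells were EPCAM-positive. Phgr1, at 10.10 in Vehicle and 8.90 in TNBS + Veh, was the only one of the 14 past 2-fold. All 19 measured neutrophil genes, of 23 named, were higher, 16 past 2-fold (median 3.69). Of the 19, 9 were above background in TNBS + Veh but not in Vehicle, and so could only be higher. Mpo, Elane, Ltf and Cxcr1 were not above background in either array, and Camp read 5.58 and 5.59. Of 16 macrophage and monocyte genes, 7 were measured and 4 were at least 2-fold higher, led by the endotoxin co-receptor gene Cd14 at 7.59 and 11.03. The others past 2-fold were Lyz2, Ly6c2 and Cd68. Another 9 were not above background in either array, among them Adgre1, C1qa, C1qb, C1qc, Mrc1 and Cd163. Csf1r was at least 0.29 higher, and Cx3cr1 read 5.86 and 5.79. Among T and NK cell genes, 8 of 17 were measured with a median of -0.17, and of B and plasma cell genes only Xbp1. All 8 measured fibroblast genes were higher, by 0.10 to 1.03, with Col1a2 dim in Vehicle. In pooled RNA of this kind, fewer cells of a type and less RNA per cell cannot be told apart. For genes that white blood cells also express, the part of the neutrophil signal in a difference was not tested.

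The colon absorbs sodium, water, short-chain fatty acids and bile acids through transporters of its surface colonocytes, while goblet cells secrete the mucus that covers them. Sodium crosses the apical membrane through the sodium/hydrogen exchanger NHE3 and, in the distal colon, through the epithelial sodium channel ENaC, which aldosterone acting on the mineralocorticoid receptor induces. Colonocytes burn butyrate in their mitochondria as a main fuel, and export of bile acids, detoxification by cytochrome P450 enzymes, tight junctions and a brush border complete the barrier.

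**Figure D2:**
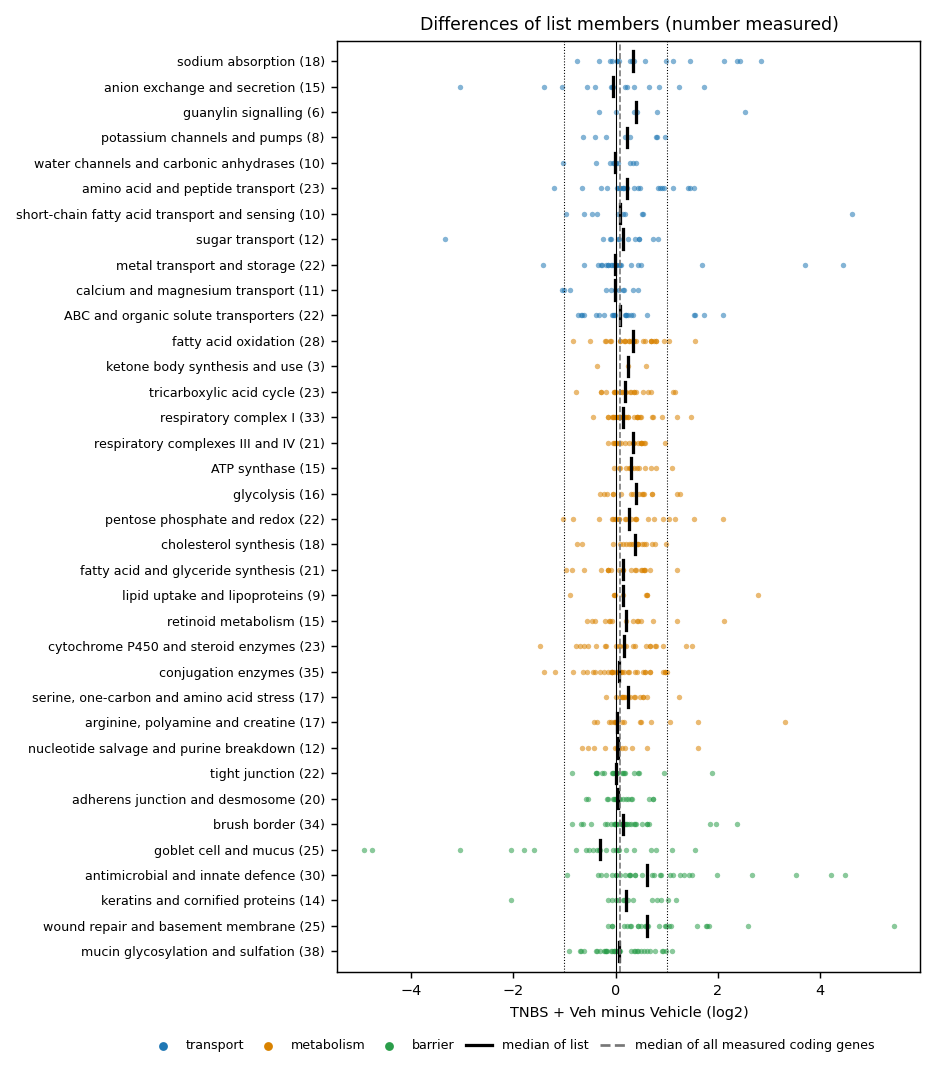
Each point is a measured member of a transport, metabolism or barrier list, placed on the x axis by its log2 difference TNBS + Veh minus Vehicle, with the number measured beside the list's name. Black bars mark list medians, which lie between -0.30 for goblet cell and mucus genes and 0.62 for wound repair genes, and the dashed line marks the median of all measured coding genes at 0.09.

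Genes of sodium absorption were mostly higher in TNBS + Veh. Of 18 measured members, 14 were higher, 6 past 2-fold, and none was 2-fold lower (median 0.34). Over all measured coding genes, 62.3% were higher, 3.06% past 2-fold, and 0.604% were 2-fold lower. Of the 18, 2 were dim in Vehicle and so could only be higher. Slc9a3, which encodes NHE3, read 15.66 in Vehicle and 18.03 in TNBS + Veh, 2.37 higher, where I3C read 15.05 and TNBS + I3C 15.76. Hsd11b2, the enzyme that keeps cortisol-like steroids from the mineralocorticoid receptor, read 12.71 and 15.15, a difference of 2.44, with 13.18 and 12.92 in the I3C arrays. Fxyd4, a regulator of the sodium pump, was 2.84 higher, at 7.51 in Vehicle and 10.35 in TNBS + Veh.

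ENaC has 3 subunits, and they differed unequally. Scnn1g, for the gamma subunit, was at 4.84 in Vehicle, below background, and 7.55 in TNBS + Veh, at least 2.12 higher. Scnn1b, for the beta subunit, was at least 1.12 higher, from a dim 5.33 to 6.55. With a background level 0.5 higher, Scnn1b was no longer 2-fold apart. Scnn1a, for the alpha subunit, was brighter and near level, at 10.14 and 10.07. Prss8, a protease that activates the channel, was 1.46 higher (8.58 and 10.04), and Sgk1, a kinase that keeps the channel at the membrane, was 0.99 higher (10.73 and 11.72). The mineralocorticoid receptor gene itself, Nr3c2, was lower, at 11.47 and 10.71. Nedd4l, the ligase that removes the channel, stood at 11.67 and 11.35, while I3C without TNBS read 11.24. The pump subunit gene Atp1b1 was near level at 18.71 and 18.78.

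Guanylin peptides signal to the colonocyte through guanylyl cyclase C and drive fluid secretion. Guca2b, which encodes uroguanylin, was 2.53 higher, at 10.85 in Vehicle, 11.09 in I3C and 13.38 in TNBS + Veh. Guca2a, for guanylin, read 19.61 in both arrays, near the table's ceiling of 19.93, where differences may be compressed. The receptor gene Gucy2c (14.49 and 14.84) and the cGMP-dependent kinase gene Prkg2 (8.54 and 9.34) differed by 0.35 and 0.80. Of the 6 members, 4 were higher and 1 lower (median 0.39), where 62.3% of all measured coding genes were higher. Guca2b alone passed 2-fold.

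Anion transport genes split in both directions. Of 15 measured members, 7 were higher and 8 lower, with 2 and 3 past 2-fold and a median of -0.05. Clca1, which encodes a protease that goblet cells secrete into mucus, was 3.05 lower, at 16.20 in Vehicle, 16.67 in I3C and 13.15 in TNBS + Veh. Ano1, a calcium-activated chloride channel, was 1.41 lower (12.03 and 10.62). The sulfate transporter gene Slc26a2 was 1.05 lower (15.42 and 14.37). Slc26a3, the main chloride/bicarbonate exchanger of the colon, stood at 18.59 in each of the other 3 arrays and at 18.18 in TNBS + Veh, and identical bright readings may be limited by the array. In the other direction, Clca4b was 1.72 higher (10.64 and 12.36) and Clca4a 1.23 higher (14.22 and 15.45), and probes of such near-identical relatives may share signal. Cftr, the cAMP-gated chloride channel, was 0.65 higher.

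**Figure D3:**
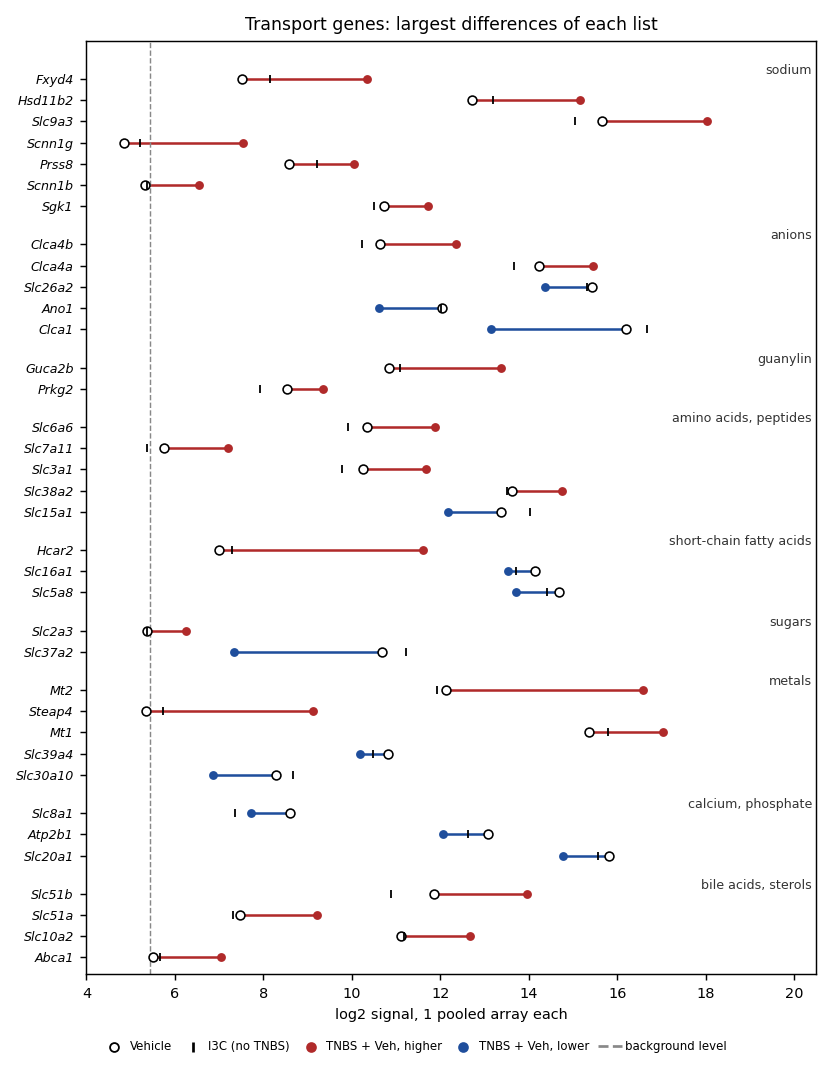
Log2 signals of the transport genes with the largest differences in each list are plotted for Vehicle (open circles), TNBS + Veh (filled circles, red where higher and blue where lower) and I3C without TNBS (ticks), 1 pooled array each, with the background level dashed. The longest lines upward belong to Hcar2 and Mt2 and the longest downward to Slc37a2 and Clca1.

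The bile acid carrier genes Slc10a2, Slc51a and Slc51b were higher, while Abcc3, on the same list, was lower. Slc10a2, the apical sodium-dependent bile acid transporter, read 11.12 in Vehicle, 11.17 in I3C and 12.68 in TNBS + Veh. Its basolateral partners, the alpha and beta subunits of the organic solute transporter, were also higher, Slc51a by 1.73 (7.48 and 9.21) and Slc51b by 2.09 (11.86 and 13.95). I3C stood at 10.88 for Slc51b, below Vehicle. Nr1h4, the bile acid receptor FXR, was 1.10 higher (10.03 and 11.13). The cholesterol exporter gene Abca1, which macrophages also express, was 1.54 higher (5.50 and 7.04). Drug efflux pump genes were split. Abcb1a was lower, at 17.44 and 16.76, as was Abcc3, at 12.27 and 11.54, but I3C stood at 16.83 and 11.66, nearly as low as TNBS + Veh. Abcc4 and Abcc1 were 0.34 and 0.24 higher, and Abcg2 and Abcc5 differed by -0.07 and -0.05. Over the whole list of ABC and organic solute transporters, 11 of 22 measured members were higher and 11 lower.

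Fuel and nutrient carriers differed by substrate. Of 23 measured amino acid and peptide transporters, 19 were higher, 4 past 2-fold, and 1 was 2-fold lower. The shares over all measured coding genes were 62.3%, 3.06% and 0.604%. Slc6a6, the taurine transporter, was 1.53 higher (10.34 and 11.87), Slc7a11, the cystine/glutamate exchanger, 1.46 higher (5.75 and 7.21) and Slc38a2 1.13 higher (13.63 and 14.76). Both subunits of the apical cystine transporter were higher, Slc3a1 by 1.42 and Slc7a9 by 0.95. The di- and tripeptide transporter gene Slc15a1 went the other way, at 13.37 in Vehicle, 14.03 in I3C and 12.17 in TNBS + Veh. The butyrate carrier genes Slc5a8 and Slc16a1 were lower, by 0.98 (14.69 and 13.71) and 0.62 (14.14 and 13.52). I3C without TNBS stood at 14.42 for Slc5a8 and at 13.70 for Slc16a1, there nearly as low as TNBS + Veh. Hcar2, a receptor that senses butyrate and is also expressed by neutrophils, was 4.62 higher (6.99 and 11.61).

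Slc37a2, a sugar phosphate carrier of the endoplasmic reticulum, was the lowest transporter gene of all. Its signal was 10.67 in Vehicle and 7.34 in TNBS + Veh, a difference of -3.33. The remaining arrays, I3C at 11.22 and TNBS + I3C at 10.16, lay near Vehicle. No other measured sugar transporter of 12 passed 2-fold, and the glucose transporter genes Slc2a1 and Slc5a1 read 13.92 and 11.06 in Vehicle and 14.30 and 10.81 in TNBS + Veh.

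Calcium, phosphate and water carriers were near level as groups, with single members lower. Of 11 measured genes of calcium, magnesium and phosphate transport, 5 were higher and 6 lower (median -0.01), and of 10 water channels and carbonic anhydrases 4 were higher and 5 lower (median -0.02). Slc20a1, a sodium-phosphate cotransporter, was 1.04 lower (15.82 and 14.78), and Atp2b1, the plasma membrane calcium pump, 1.01 lower (13.07 and 12.06), with I3C at 12.63. Slc8a1, the sodium/calcium exchanger, was 0.89 lower, but the I3C array was lower still, at 7.35 against 8.61 in Vehicle. Aqp8, a water channel of surface colonocytes, was 1.02 lower (12.30 and 11.28). Higher by less were the phosphate carrier gene Slc34a2, by 0.44 (7.77 and 8.21, with I3C at 8.69), and the water channel gene Aqp11, by 0.40 (6.79 and 7.19). Carbonic anhydrases showed no 2-fold difference: Car4 read 13.96 and 13.92, and Car1 was at the ceiling of 19.93 in both arrays.

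Of all Slc genes, 191 were measured, with 10 past 2-fold upward, 5 downward and a median of 0.07. Beside those named above, the 10 include the copper carrier gene Slc31a2 (6.63 and 7.74) and Slc11a1, a metal carrier of phagocytes, at least 1.45 higher. Potassium channel genes differed by the set read. Of 20 measured Kcn genes, 14 were lower and none passed 2-fold (median -0.10). Of the 8 measured potassium channels and pumps known in colonic transport, 5 were higher and 3 lower (median 0.23). Kcnk1 stood 0.96, Kcne3, a subunit of the basolateral channel, 0.80 and Kcnn4, a calcium-activated channel, 0.78 above Vehicle. The 3 lower were Atp12a (13.15 and 12.52, with I3C at 14.85), Kcnk5 (12.58 and 12.18) and Kcnma1 (6.53 and 6.35).

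Metal-binding proteins were among the genes with the largest differences in the transport lists. Metallothioneins bind zinc and copper and are induced by metals, glucocorticoids and inflammatory signals. Mt2 stood at 12.13 in Vehicle and 16.58 in TNBS + Veh, a difference of 4.45, with I3C at 11.92 and TNBS + I3C at 13.68. Mt1 was 1.69 higher (15.35 and 17.04), with I3C at 15.80 and TNBS + I3C at 16.66. Steap4, a metal reductase, was at least 3.70 higher (5.34 and 9.13), and it is also expressed in inflammatory cells. The zinc importer gene Slc39a4 was 0.62 lower and Slc30a10, a manganese exporter, 1.42 lower (8.29 and 6.87). Among iron genes, the ferritin light chain gene Ftl1 was 0.50 higher (13.41 and 13.91), the transferrin receptor gene Tfrc read 11.97 and 12.05 and the iron exporter gene Slc40a1 10.38 and 10.23. The ferritin heavy chain gene Fth1 read 17.96 in all 4 arrays, and no difference can be read from such an identical value. Over all 22 measured members the median was -0.02.

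Promoters of Mt1 and Mt2 are shown because metallothionein genes carry repeated metal response elements, the sites of the zinc-sensing factor MTF-1. Windows of 300 bases, from 250 before to 50 after the start site, come from RefSeq (GRCm38.p6) and read along the gene's own strand, with the letters TGCACNC or TGCGCNC, on either strand, in capitals and the rest in lower case.
Mt1 chr8:94178839-94179138 (plus strand): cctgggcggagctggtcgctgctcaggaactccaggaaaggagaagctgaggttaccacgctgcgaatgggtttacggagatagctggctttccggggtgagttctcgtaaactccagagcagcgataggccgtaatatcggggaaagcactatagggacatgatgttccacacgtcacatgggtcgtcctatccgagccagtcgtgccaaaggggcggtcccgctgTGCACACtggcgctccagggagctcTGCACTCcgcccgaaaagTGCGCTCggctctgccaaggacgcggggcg
Mt2 chr8:94172368-94172667 (plus strand): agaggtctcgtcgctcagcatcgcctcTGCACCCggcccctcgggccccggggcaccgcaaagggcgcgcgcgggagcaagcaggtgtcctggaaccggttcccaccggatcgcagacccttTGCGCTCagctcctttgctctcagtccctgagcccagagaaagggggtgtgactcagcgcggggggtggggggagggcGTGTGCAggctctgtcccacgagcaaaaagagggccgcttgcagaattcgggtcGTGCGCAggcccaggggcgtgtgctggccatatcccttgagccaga

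Mt1 holds 3 such matches and Mt2 holds 4. At least 1 match is found in 25.7% of all 32851 promoter windows and at least 3 in 1.31%. Of 20 genes on the metal list with a window, 12 hold at least 1 match, and Mt1 and Mt2 alone hold 3 or more. A match describes the letters and is not evidence of binding.

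Mitochondrial genes were higher by small amounts in most lists, some of them close to the general lean of bright genes. Of 15 ATP synthase genes, 14 were higher (median 0.31), as were 17 of 21 genes of complexes III and IV (median 0.33), 25 of 33 of complex I (median 0.15), 16 of 23 of the citric acid cycle (median 0.18) and 22 of 28 of fatty acid oxidation (median 0.33), where 62.3% of all measured coding genes were higher with a median of 0.09. Over genes of mean signal 8 to 14 the median was 0.18, which the lists of complex I and the citric acid cycle did not exceed. Members past 2-fold were Acot2, an acyl-CoA thioesterase (10.05 and 11.60), and Acaa2, the last enzyme of the oxidation spiral (11.40 and 12.44). In the respiratory chain they were Ndufa4 (9.66 and 11.13), Ndufs7 (9.75 and 10.94) and the ATP synthase subunit gene Atp5g2 (13.29 and 14.40), and in the citric acid cycle Mdh2 (12.49 and 13.65) and Sdhd (11.68 and 12.81). For Acot2, the I3C array also stood above Vehicle, at 11.11. With quantile normalization, the median of complexes III and IV was 0.056.

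Glycolysis and cholesterol synthesis lists had medians above that of all measured coding genes, and other lipid synthesis genes lay near it. Of 16 measured glycolysis genes, 11 were higher (median 0.39), where 62.3% of all measured coding genes were higher with a median of 0.09. Pfkfb3 (5.66 and 6.92) and Pgk1 (13.64 and 14.84) were furthest up, while the hexokinase gene Hk2 read 10.17 and 9.87. Pfkfb3 was near background in Vehicle and no longer 2-fold apart with a background level 0.5 higher. Of 18 cholesterol synthesis genes, 15 were higher and none passed 2-fold (median 0.38). Insig1, which holds sterol synthesis back, was 0.75 lower (11.16 and 10.41). Of 21 measured genes of fatty acid and glyceride synthesis, 13 were higher (median 0.14). Agpat2, an acyltransferase of phosphatidic acid synthesis, was 1.20 higher (8.86 and 10.06), while the acyltransferase gene Gpam was 0.98 lower (7.75 and 6.77) and the desaturase genes Scd1 and Fads2 0.86 and 0.61 lower. Pla2g2a, a secreted phospholipase that kills bacteria, was 2.79 higher (8.80 and 11.59). The fatty acid binding protein gene Fabp2 was 0.89 lower, at 16.48 and 15.59, but I3C stood at 15.41.

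Redox enzymes were split. Gpx2, the glutathione peroxidase of gut epithelium, was 2.10 higher (6.53 and 8.63, with I3C at 6.88), Gpx1 1.17 higher (12.64 and 13.81) and Gsr 1.04 higher (10.84 and 11.88). Hmox1, a haem-degrading enzyme that macrophages also make, was 1.53 higher (6.28 and 7.81). Nqo1 and Gclc, which share the factor NRF2 as an inducer with Gpx2 and Hmox1, were lower. Nqo1 read 8.45 in Vehicle, 7.79 in I3C and 7.42 in TNBS + Veh, and Gclc read 13.27, 12.63 and 12.44.

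Enzymes of detoxification differed gene by gene. Of 36 measured Cyp genes, 3 passed 2-fold upward and 4 downward (median 0.03). The 4 lower all belong to family 2: Cyp2c68 (11.92 and 10.45), Cyp2c69 (9.89 and 8.75), Cyp2c67 (10.71 and 9.63) and Cyp2d12 (9.35 and 8.07). I3C read 11.83, 9.60, 10.71 and 9.86 for them. Cyp2c65 and Cyp2c66, of the same family, were 0.67 higher each, and probes of these paralogs may share signal. The 3 higher were fatty acid hydroxylases of family 4, Cyp4b1 (9.40 and 10.89), Cyp4f40 (9.32 and 10.69) and Cyp4f18, a leukocyte gene, at least 1.38 higher. Of 9 measured carboxylesterase genes, 4 were higher and 4 lower (median 0.00). Past 2-fold were Ces2a, 1.41 lower (13.23 and 11.82), and Ces1f, 1.18 lower (8.83 and 7.65), while Ces2e was 0.57 higher. The glutathione transferase genes furthest apart were Gstp1, 1.00 higher, Gstm1, 0.97 higher, and Gstk1, 0.93 higher. Over all 35 measured conjugation enzymes, 20 were higher and 15 lower (median 0.07).

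Single enzymes outside these groups stood further apart. Arg2, the mitochondrial arginase, was 3.32 higher (7.53 and 10.85), and Nos2, the inducible nitric oxide synthase that uses the same substrate, at least 1.06 higher. Gda, guanine deaminase, was 1.61 higher (8.98 and 10.59). In retinoid metabolism, Dhrs9, which converts retinol to retinal, was 2.12 higher (6.93 and 9.05), and Isx, a transcription factor that represses vitamin A uptake, was 1.19 higher (10.72 and 11.91). Asns, asparagine synthetase, was 1.24 higher, at 7.62 and 8.86, with I3C at 8.09.

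**Figure D4:**
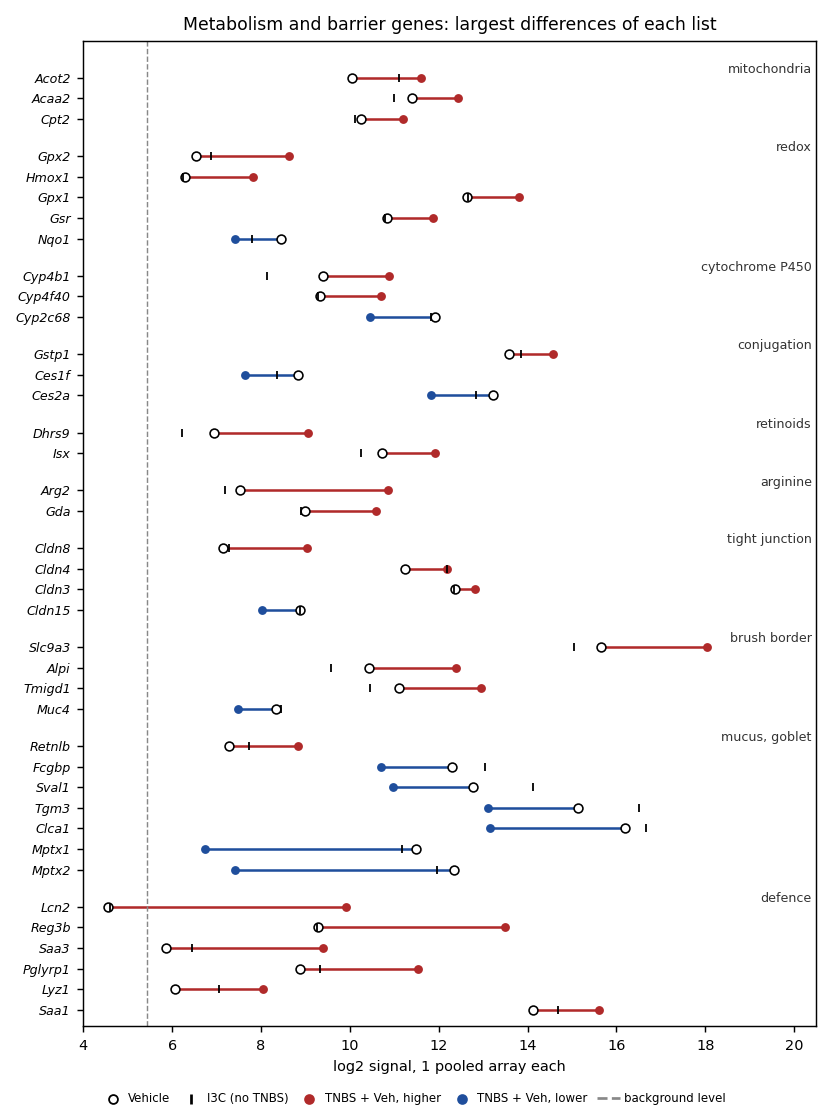
Log2 signals of metabolism and barrier genes with the largest differences in each list are plotted for Vehicle (open circles), TNBS + Veh (filled circles, red where higher and blue where lower) and I3C without TNBS (ticks), 1 pooled array each, with the background level dashed. Mptx1 and Mptx2 show the longest lines downward, and for Sval1, Tgm3 and Fcgbp the I3C tick lies above Vehicle.

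Junction genes were near level as groups, with a few members apart. The median was 0.01 over 22 tight junction genes and 0.05 over 20 of adherens junctions and desmosomes. Cldn8, a claudin that seals the distal colon, was 1.89 higher (7.14 and 9.03, with I3C at 7.27). Cldn4, another sealing claudin, was 0.95 higher (11.24 and 12.19), but I3C without TNBS stood at 12.18. Cldn15, which forms a cation pore, was 0.86 lower (8.88 and 8.02), with I3C at 8.87. Ocln, Tjp1 and Cdh1 differed by 0.13, 0.02 and 0.21.

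Brush border genes of surface colonocytes were higher where they differed most. Alpi, intestinal alkaline phosphatase, read 10.43 in Vehicle, 9.57 in I3C and 12.39 in TNBS + Veh, and Tmigd1, a membrane protein of the brush border, read 11.10, 10.46 and 12.95. With Slc9a3, they were the 3 of 34 measured members past 2-fold, and none was 2-fold lower. Among all measured coding genes these shares were 3.06% and 0.604%. Vil1, the bundling protein villin, read 14.27 and 14.46. The transmembrane mucin genes Muc3 and Muc13 read 19.93 and 19.90 in both arrays, where the ceiling limits differences, and Muc4 was 0.86 lower (8.34 and 7.48).

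Goblet cell and mucus genes had the lowest median of the barrier lists, at -0.30. Of 25 measured members, 15 were lower, 6 of them by at least 2-fold, against 0.604% of all measured coding genes 2-fold lower. Mptx2, a mucosal pentraxin, stood at 12.34 in Vehicle and 7.42 in TNBS + Veh, with I3C at 11.97 and TNBS + I3C at 11.34. Its relative Mptx1 stood at 11.49 and 6.73, with I3C at 11.17 and TNBS + I3C at 10.11. For both genes, TNBS + Veh stood apart from the other 3 arrays. Fcgbp, which cross-links the mucus gel, read 12.30 and 10.71, Tgm3, a transglutaminase, 15.14 and 13.10, and Sval1, a secreted protein, 12.77 and 10.97. I3C without TNBS was above Vehicle for these, at 13.04, 16.50 and 14.12.

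Not all goblet cell genes were lower. Retnlb, a goblet cell protein that acts on bacteria, was 1.55 higher (7.29 and 8.84), and Spink4, a protease inhibitor, 1.11 higher (14.36 and 15.47, with I3C at 15.57). Zg16, a lectin of the mucus, was 0.69 higher (18.29 and 18.98). For Zg16, I3C without TNBS was higher still, at 19.47, near the ceiling of 19.93. The trefoil factor gene Tff3 read 13.24 and 13.45. The fate factor gene Atoh1 was 0.77 lower (9.55 and 8.78), and the goblet factor gene Spdef 0.18 lower. The list of mucin glycosylation and sulfation genes had a median of 0.06 over 38 measured members. Only Sulf2, a sulfatase and so not an enzyme that builds or sulfates glycans, passed 2-fold (6.16 and 7.27).

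Defence and repair lists, which hold genes of both epithelium and leukocytes, were mostly higher. Of 30 measured antimicrobial and innate defence genes, 24 were higher, 11 past 2-fold, and none was 2-fold lower (median 0.61). The shares over all measured coding genes were 62.3%, 3.06% and 0.604%. Lcn2, Nos2 and Defb1 were dim in Vehicle and so could only be higher. Reg3b, a lectin that damages bacteria, read 9.29 in Vehicle, 9.25 in I3C and 13.50 in TNBS + Veh, while Reg3g read 6.63 and 7.38. Lcn2, which binds bacterial iron carriers and is also a neutrophil granule protein, was at least 4.48 higher (4.56 and 9.91). Serum amyloid genes were higher, Saa3 by 3.52 and Saa2 by 1.43, with Saa1 at 14.11 and 15.61. Pglyrp1, a peptidoglycan-binding protein of neutrophil granules, was 2.66 higher (8.88 and 11.54). The oxidase genes Duox2 and Nox1 were 1.12 and 1.25 higher.

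Of 25 measured wound repair genes, 22 were higher, 8 past 2-fold (median 0.62), against 62.3% and 3.06% of all measured coding genes. Mmp8, Mmp9 and Adam8, among the 8, were dim in Vehicle and so could only be higher. Il1rn, the interleukin-1 receptor antagonist, was 2.58 higher (9.49 and 12.07), Plaur, the urokinase receptor, 1.82 higher (7.96 and 9.78) and Cd44 1.59 higher (7.89 and 9.48), all of which leukocytes express too. Mmp8, at least 5.44 higher, is a collagenase of neutrophils, and Mmp9 and Adam8, at least 1.77 and 1.79 higher, are also expressed by them. Among those of epithelial integrins, Itga2 was 1.09 higher (8.90 and 9.99) and Itgb6 0.64 higher, while Itga6 and Itgb1 differed by -0.07 and -0.15. The keratin genes were near level, with Krt8 at the ceiling, Krt20 at 17.84 and 18.01, and Krt36 as the only one past 2-fold (6.16 and 7.34). I3C without TNBS read 7.39 for Krt36.

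Other epithelial programmes differed as well. All 26 measured proliferation genes were higher (median 0.57), where 62.3% of all measured coding genes were. Of the 26, 3 were dim in Vehicle and so could only be higher. Mki67, a marker of cycling cells, read 9.87 in Vehicle, 9.66 in I3C and 11.24 in TNBS + Veh. Stem cell genes were split: 9 of 15 measured were lower, with differences down to -0.39, and 6 higher (median -0.13). Olfm4, a stem cell gene that neutrophils also express, was the only one past 2-fold, at least 1.27 higher (4.60 and 6.70), and Sox9 and Cd24a were 0.53 and 0.51 higher. Lgr5 was near background in both arrays at 5.48 and 5.27. Of 12 measured enteroendocrine genes, 9 were lower (median -0.42), led by Insl5 (7.42 and 6.37) and Chgb (8.37 and 7.37). With a background level 0.5 higher, the enteroendocrine median was -0.14. Of 13 measured heat shock genes, 8 were lower and 4 higher (median -0.22). Past 2-fold were Hsph1 at 11.15 and 9.42, Hspa1a at 12.25 and 10.68 and Hsp90aa1 at 15.79 and 14.47. I3C was above Vehicle for all 3, at 12.42, 13.18 and 16.32. Hspa5, the chaperone of the endoplasmic reticulum, was 0.84 higher (12.65 and 13.49). Ahr, the receptor that I3C addresses, read 8.37 and 8.21.

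Clock genes differed in both directions. The clock of the colonocyte is driven by the activators BMAL1 (Arntl) and CLOCK through E-boxes, while the repressors REV-ERB alpha and beta (Nr1d1 and Nr1d2) hold Arntl and Nfil3 down through ROR elements. Nr1d1 was at 13.44 in Vehicle and 11.10 in TNBS + Veh, a difference of -2.34, with I3C at 13.10 and TNBS + I3C at 13.13. Dbp, a clock output factor, was 1.39 lower (8.90 and 7.51, with I3C at 9.35), and Nr1d2 was 0.83 lower (12.04 and 11.21, with I3C at 11.63). Tef, Per3 and Cry2 were lower by smaller amounts, at -0.35, -0.34 and -0.29. The other 9 of 15 measured members were higher, among them Cry1 (9.12 and 10.06), Per2 (9.32 and 9.90), Nfil3 (6.82 and 7.26) and Arntl (7.79 and 8.14). The sources used here give no time of day for the collection of each group, and clock time and group cannot be told apart.

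**Figure D5:**
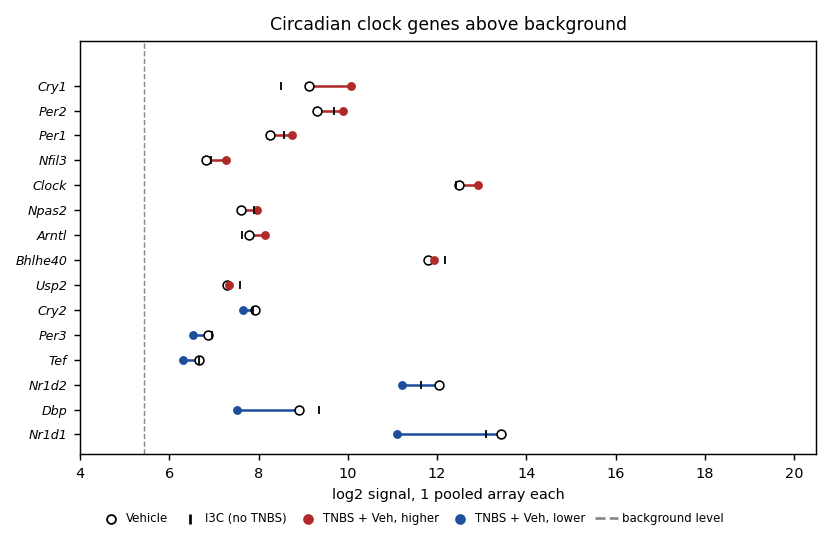
Log2 signals of the 15 measured clock genes are plotted for Vehicle (open circles), TNBS + Veh (filled circles, red where higher and blue where lower) and I3C without TNBS (ticks), 1 pooled array each, with the background level dashed. Nr1d1, Dbp and Nr1d2 have the longest lines downward and Cry1 the longest upward.

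Promoters of Nfil3 and Arntl are shown because they are clock genes whose windows hold the ROR element that REV-ERB proteins also bind. The letters TAGGTCA, on either strand, are in capitals, and the Arntl window is that of the start site at which the match lies.
Nfil3 chr13:52980990-52981289 (minus strand): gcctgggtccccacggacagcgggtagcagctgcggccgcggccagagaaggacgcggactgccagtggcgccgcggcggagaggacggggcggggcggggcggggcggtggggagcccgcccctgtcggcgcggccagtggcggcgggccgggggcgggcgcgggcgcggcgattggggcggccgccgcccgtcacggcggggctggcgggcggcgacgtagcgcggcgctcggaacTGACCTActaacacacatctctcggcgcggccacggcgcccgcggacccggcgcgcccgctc
Arntl chr7:113207261-113207560 (plus strand): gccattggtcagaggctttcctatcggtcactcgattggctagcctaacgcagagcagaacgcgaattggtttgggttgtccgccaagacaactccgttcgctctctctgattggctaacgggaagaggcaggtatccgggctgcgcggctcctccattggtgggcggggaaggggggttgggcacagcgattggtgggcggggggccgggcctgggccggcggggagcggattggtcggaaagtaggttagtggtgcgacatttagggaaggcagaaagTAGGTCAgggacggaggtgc

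These letters are found in 2.61% of all promoter windows of that length. Of 16 clock genes with a window, Nfil3 and Arntl alone hold them, and both read higher in TNBS + Veh, by 0.44 and 0.35. Cry1, Per1, Clock and Npas2, whose windows lack them, were also higher, by 0.94, 0.49, 0.42 and 0.36. Nr1d1, Nr1d2, Dbp, Tef, Per3 and Cry2, whose windows lack them too, were lower. A match is not evidence of binding, and regulation through these sites was not tested. The E-box letters CACGTG, found in 7.15% of windows, are in those of Tef, Per1, Cry1 and Bhlhe41, of which Tef was lower, Per1 and Cry1 higher and Bhlhe41 not measured.

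Noncoding RNAs of several classes lay lower than coding genes, and the median of all probe sets also lay lower in TNBS + Veh (4.99 and 4.87, a shift of -0.12). Of 612 measured small nucleolar RNAs, which guide the modification of ribosomal RNA, 498 were lower, 58 of them by at least 2-fold (median -0.27), against 0.604% of coding genes 2-fold lower. Snora30 was at 14.53 in Vehicle, 12.12 in TNBS + Veh and 14.58 in I3C, and Snord71 at 16.50, 14.43 and 16.15. Snora31, Snord111 and Snora20 differed by -2.02, -2.02 and -1.93. Small nuclear RNAs of the spliceosome and others showed the same lean, with 465 of 677 measured lower (median -0.19). Among other classes, 396 of 567 measured long noncoding RNAs (median -0.10) and 161 of 262 microRNA genes (median -0.12) were lower.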

How the data were processed

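RNA of EPCAM-enriched cells, pooled by group, was hybridized to 1 Clariom D array per group. The authors made log2 signals with the Transcriptome Analysis Console and deposited them with 2 decimals. The sources used here give neither the normalization nor the genome build. Probe sets with 1 symbol in the platform annotation were named, 22596 through gene numbers in RefSeq (GRCm38.p6), 7710 by symbol and 332 under the annotated symbol, while 2176 with several symbols were left out, Muc2 and Gapdh among them. Dim values were raised to the background level of 5.43 and differences taken as TNBS + Veh minus Vehicle, which gives counts and medians and no p-value. A list median was given only where at least 5 members were measured, and not every list is described here. The members, the 54 gene lists and the background level were chosen with earlier results of these data known. Genes were named by a rule: up to 6 members with the largest differences per list, all 2-fold members of transport, metabolism and barrier lists, the 20 highest and lowest coding genes, and 2-fold Slc, Abc, Cyp, Cldn and Krt genes. Other list members were named after their values were seen. The calculation of differences was tested on simulated data. Alternatives changed the floor, the normalization, the probe set rule, the fold threshold, the genes counted and the reference. Python 3.11.15 with numpy 2.4.6 and pandas 2.3.3 was used.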

Additional observations from a re-analysis of the deposited data

Results flagged for a closer look

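Among 33142 probe sets with no gene symbol here, which enter no comparison above, 10061 were above background in either array. In TNBS + Veh, 238 of these stood 2-fold or more above Vehicle and 245 as far below it, so that higher and lower were nearly balanced, unlike coding genes.

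Named genes at least 2-fold apart without I3C that went at least 1.5-fold the other way between the arrays given I3C (TNBS + I3C minus I3C) are listed here because of their opposite directions. With 1 array per group, this difference between the contrasts was not tested. Fxyd4 was 2.84 higher without I3C and differed by -0.95 with it, and Krt36 was 1.18 higher and differed by -0.72. Clca1 differed by -3.05 without I3C and by 0.91 with it. Ces2a differed by -1.41 and 1.13, Ces1f by -1.18 and 1.31, and Nqo1 by -1.03 and 1.36. For Phgr1 the values were -1.20 and 1.23, for Adm, which encodes adrenomedullin, -1.47 and 0.86, and for Arhgap20 -1.38 and 0.99.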

How the results depend on the processing

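No paired analysis was possible because each group has 1 array. At a threshold of 1.5-fold, 1026 coding genes were higher and 229 lower, at 3-fold 123 and 11, and over every gene with 1 symbol 556 and 224 at 2-fold. Without a floor the counts were 326 and 73, with quantile normalization 247 and 81. With the list mean in place of the median, the value was 0.763 for sodium absorption, 0.628 for guanylin signalling, 0.361 for short-chain fatty acid transport, 0.35 for metals, 0.42 for lipid uptake, 0.405 for arginine and polyamines, -0.674 for goblet cells, 0.943 for antimicrobial genes, 0.975 for wound repair, 3.974 for neutrophils and 1.493 for macrophages. For the clock list the mean was -0.12 where the median was 0.13, so their signs differ. A background level 0.5 higher gave medians of 0.41 for lipid uptake, -0.14 for enteroendocrine and 2.47 for macrophage genes. Without a floor the neutrophil median was 3.92, and quantile normalization gave 0.056 for complexes III and IV. All 152 named genes 2-fold apart kept their direction when the floor, background level, normalization, probe set rule or reference was changed. They were picked for a large difference and the settings reuse the same arrays, so a reversal was unlikely from the start. A background level 0.5 higher left 143 of them 2-fold apart. Scnn1b, Nos2, Olfm4, Cyp4f18 and Slc11a1 were among those that fell short. With the mean of Vehicle and I3C as the reference, 132 stayed 2-fold apart, with quantile normalization 133 and with centring 131. Nqo1, Ces1f, Phgr1, Krt36, Spink4, Slc26a2, Slc20a1 and Atp2b1 were among those that did not with the mean reference. Acaa2, Mdh2, Sdhd, Nr1h4 and Gsr were among those that did not with quantile normalization. Each value rests on 1 array, values near 5.43 and 19.93 are limited by background and ceiling, and a moderate difference cannot be told from variation between pools.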

Other observations

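Tubulin genes, picked out after their values were seen, stood apart from other structural genes. Of 8 measured, 6 were higher and 5 of these passed 2-fold, with Tubb5 at 1.95, Tuba1a at 1.93 and Tuba4a at 1.73 above Vehicle. Proteasome subunit genes were higher by less, in 35 of 42 measured cases with a median of 0.26 and none past 2-fold.

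The linker histone gene H1f2, 1.75 lower than in Vehicle, and Ggh, an enzyme that removes glutamates from folate, at 11.89 and 10.40, were among the 20 lowest coding genes. Among immediate early genes, Ier3 (6.75 and 8.56) and Nr4a1 (14.24 and 15.53) passed 2-fold, while Atf3, at 17.42 in both arrays, and Fos, at 16.83 and 16.88, did not. Id2 and Id1, inhibitors of DNA binding, were 1.23 and 1.11 higher.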
